A study of Mus musculus with 9 samples.

Results

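The genes described here are the general pluripotency factors Pou5f1, Sox2, Sall4 and Utf1, together with Lin28a, Lin28b and Trim71 of the Lin28 pathway. They were chosen by gene symbol, with no expression value in the rule, and are 7 of the 35896 genes (23 of 116640 transcripts) to which the deposited transcript values could be assigned. The study measured poly-A RNA by sequencing in E14 mouse embryonic stem cells, in 9 libraries that fall into 3 groups of 3 paired biological replicates. The self-renewing control group was kept in LIF with a MEK inhibitor (PD0325901, 1 µM) and a glycogen synthase kinase-3β inhibitor (CHIR99021, 1 µM), a mixture called LIF2i. The withdrawn control group spent 72 h without LIF2i, and the CK666 group spent the same 72 h without LIF2i but with CK666 at 80 µM. CK666 inhibits Arp2/3, the complex that nucleates branched actin filaments. All groups grew on gelatin in medium with 15% fetal bovine serum. The inhibitor was dissolved in DMSO, and no label states that controls were given the solvent, so the effects of the drug and of DMSO cannot be told apart. All cells are of the same line, and the replicates are separate samples of it. In the main fit, which includes the replicate number, p-values measure the spread left after differences common to the libraries of a replicate are removed.

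OCT4 (the product of Pou5f1) and SOX2 bind DNA together at composite octamer and SOX elements and maintain pluripotency in both the naive and the later, primed form. SALL4 is a zinc finger factor that supports stem cell identity and works with the NuRD corepressor, and UTF1 is a chromatin-associated protein of pluripotent cells. LIN28A and LIN28B are RNA-binding proteins that block maturation of the let-7 microRNAs. let-7 in turn recognises the messenger RNAs of Lin28a, Lin28b and Trim71, so that LIN28 and let-7 repress each other, and TRIM71 is a ubiquitin ligase and RNA-binding repressor of early development.

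The let-7 family shares the seed, bases 2 to 8 of the mature microRNA, which pairs with target messages. Of 11 mature let-7 family sequences in RefSeq (GRCm38.p6), 10 have the seed GAGGUAG. The microRNAs themselves were not measured in these poly-A libraries. They are shown, with the seed in capitals, because LIN28 proteins block their maturation and the members were searched for the complement of their seed. The other, let-7j, has the seed GAGGUAU.
mmu-let-7a-5p (chr13:48538239-48538260, minus strand): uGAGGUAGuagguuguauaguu
mmu-let-7g-5p (chr9:106178846-106178867, plus strand): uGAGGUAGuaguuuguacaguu
mmu-let-7j (chr3:140028281-140028304, plus strand): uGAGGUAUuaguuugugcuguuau

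The complement of the common seed, CTACCTC, was searched on the sense strand of the 3′ untranslated region of each gene's main transcript (GENCODE M21, GRCm38). Trim71 held 4 matches in 5512 bases, Lin28b 4 in 4445 bases, Lin28a 2 in 2775 bases and Sall4 1 in 1697 bases. Pou5f1 (221 bases), Sox2 (1086 bases) and Utf1 (122 bases) held 0 matches. Long regions hold such letters more often: of all 16412 genes with a 3′ untranslated region 8.21% had a match, and of genes within 20% of the same length 30.1% did for Trim71, 24.0% for Lin28b, 14.5% for Lin28a and 11.4% for Sall4. The genes with 0 matches have shorter regions, and of genes of like length only 7.70% had a match for Sox2, 1.91% for Pou5f1 and 0.275% for Utf1. Sites of 22 bases are shown with the seed match in capitals and 1 further base, since an A at that place is a known feature of strong microRNA sites. All 4 Trim71 matches, both Lin28a matches and the Sall4 match were followed by A, and 1 of the 4 Lin28b matches was. A match is a description of the letters and not a measured site.
Trim71 match 1 (chr9:114512472-114512493, minus strand): acattgcctaagtcCTACCTCa
Trim71 match 2 (chr9:114512376-114512397, minus strand): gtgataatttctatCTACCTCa
Lin28a match 1 (chr4:134005189-134005210, minus strand): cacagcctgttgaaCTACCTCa
Lin28a match 2 (chr4:134004551-134004572, minus strand): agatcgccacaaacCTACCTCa
Lin28b match 1 (chr10:45381022-45381043, minus strand): cccgggcgggaagtCTACCTCa
Lin28b match 2 (chr10:45378648-45378669, minus strand): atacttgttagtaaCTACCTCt
Sall4 match 1 (chr2:168748940-168748961, minus strand): gggctttaatttatCTACCTCa

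RefSeq promoter windows, 250 bases before to 50 bases after a transcription start, were available for 6 of the 7 genes. The windows of Utf1, Lin28a and Lin28b are shown because these are the genes whose transcripts rose on withdrawal. Both strands were searched for an octamer (ATGCAAAT, in 1.74% of 32851 promoters of this length), a SOX motif (CATTGT, 12.6%), a GC box (GGGCGG, 35.7%) and a TATA motif (TATAAA, 13.6%), and matches are in capitals. Utf1 had 4 GC boxes, a pair of which overlap, Lin28a had 1 SOX motif and 1 GC box, and Lin28b had 0 matches and a GC content of 39.0%, against a median of 52.7% over all promoters. Of the windows not shown, Sox2 had 2 GC boxes, Trim71 had 1, and Pou5f1 had 1 in the window of its first start and 1 SOX motif in that of another. The part of these motifs in the changes was not tested. The octamer was found in 0 of the windows of these genes. The Lin28 genes moved together, and the GC content of their windows was 63.3% for Lin28a and 39.0% for Lin28b.
Utf1 promoter (chr7:139943606-139943905, plus strand): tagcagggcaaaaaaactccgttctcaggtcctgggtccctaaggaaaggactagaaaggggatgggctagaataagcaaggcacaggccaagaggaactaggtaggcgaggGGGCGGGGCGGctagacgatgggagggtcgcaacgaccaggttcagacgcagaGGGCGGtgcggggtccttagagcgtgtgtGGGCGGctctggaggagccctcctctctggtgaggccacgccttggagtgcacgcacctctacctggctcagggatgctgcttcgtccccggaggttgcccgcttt
Lin28a promoter (chr4:134018767-134019066, minus strand): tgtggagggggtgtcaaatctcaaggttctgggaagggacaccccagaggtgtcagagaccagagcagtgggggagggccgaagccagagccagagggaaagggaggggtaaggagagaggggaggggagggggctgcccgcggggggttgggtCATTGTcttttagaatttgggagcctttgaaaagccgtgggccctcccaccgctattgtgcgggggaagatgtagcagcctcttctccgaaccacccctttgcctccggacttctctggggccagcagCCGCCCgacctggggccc
Lin28b promoter (chr10:45470152-45470451, minus strand): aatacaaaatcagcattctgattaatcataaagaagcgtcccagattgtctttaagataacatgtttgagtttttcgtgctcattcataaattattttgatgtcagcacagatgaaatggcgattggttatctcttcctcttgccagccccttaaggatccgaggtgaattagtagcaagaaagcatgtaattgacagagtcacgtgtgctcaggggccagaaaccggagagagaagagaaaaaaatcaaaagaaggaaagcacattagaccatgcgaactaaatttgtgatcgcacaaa

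Library totals were between 16894327 and 22550952 estimated counts. The labelled cell type was checked against 6 embryonic stem cell markers, all of which were above 1 CPM (read counts scaled to library size) in every library. Their summed level was 4024 to 5746 CPM with LIF2i, 1205 to 1427 CPM after withdrawal and 1092 to 1970 CPM with CK666. Markers of fibroblasts, primitive endoderm, primitive streak and mesoderm, and germ cells summed to at most 67.9 CPM in any library, with the fibroblast marker Lum at 0 in 8 of 9 libraries. Trophectoderm markers summed to 85.6 to 99.1 CPM with LIF2i, nearly all of it Tfap2c, and to at most 20.8 CPM in the other libraries. Early neural markers were highest in replicate 1 of each group, at 194, 75.7 and 103 CPM, with Tubb3 and Sox1 the main contributors. These are bulk samples, in which a change in the number of cells of a type and a change in the RNA per cell cannot be told apart. Replicate 1 differed from replicates 2 and 3 in its balance of short and long transcripts, and the fitted changes of the 7 genes are also given without it.

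On the TPM scale, in which counts are divided by effective transcript length and scaled to a fixed total per library, the 7 genes spanned a wide range, and the order of their levels was not the same with and without LIF2i. Pou5f1 was the most abundant in every group, at 1687 ± 188 TPM (SD, n = 3) with LIF2i, 1379 ± 173 TPM after withdrawal and 1455 ± 115 TPM with CK666, and Lin28b was the least abundant, at 5.83 ± 0.56, 21.8 ± 10.1 and 18.3 ± 6.37 TPM. With LIF2i the order was Pou5f1, Sox2, Sall4, Lin28a, Utf1, Trim71 and Lin28b. From Sall4 to Trim71, each gene overlapped between libraries with the next in this order. Sall4 (60.2 to 156 TPM) and Lin28a (75.4 to 92.7 TPM) nevertheless lay above Trim71 (26.4 to 56.3 TPM) in all libraries with LIF2i. After withdrawal Utf1 (491 ± 111 TPM) and Lin28a (337 ± 126 TPM) stood next after Pou5f1 and ahead of Sox2 (98.8 ± 29.3 TPM) and Sall4 (79.2 ± 48.5 TPM). Utf1 and Lin28a overlapped, as did Sox2 and Sall4. The CK666 group had the same order as the withdrawn controls, with Sall4 (64.9 ± 30.3 TPM) and Trim71 (39.1 ± 11.9 TPM) also overlapping.

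**Figure D1:**
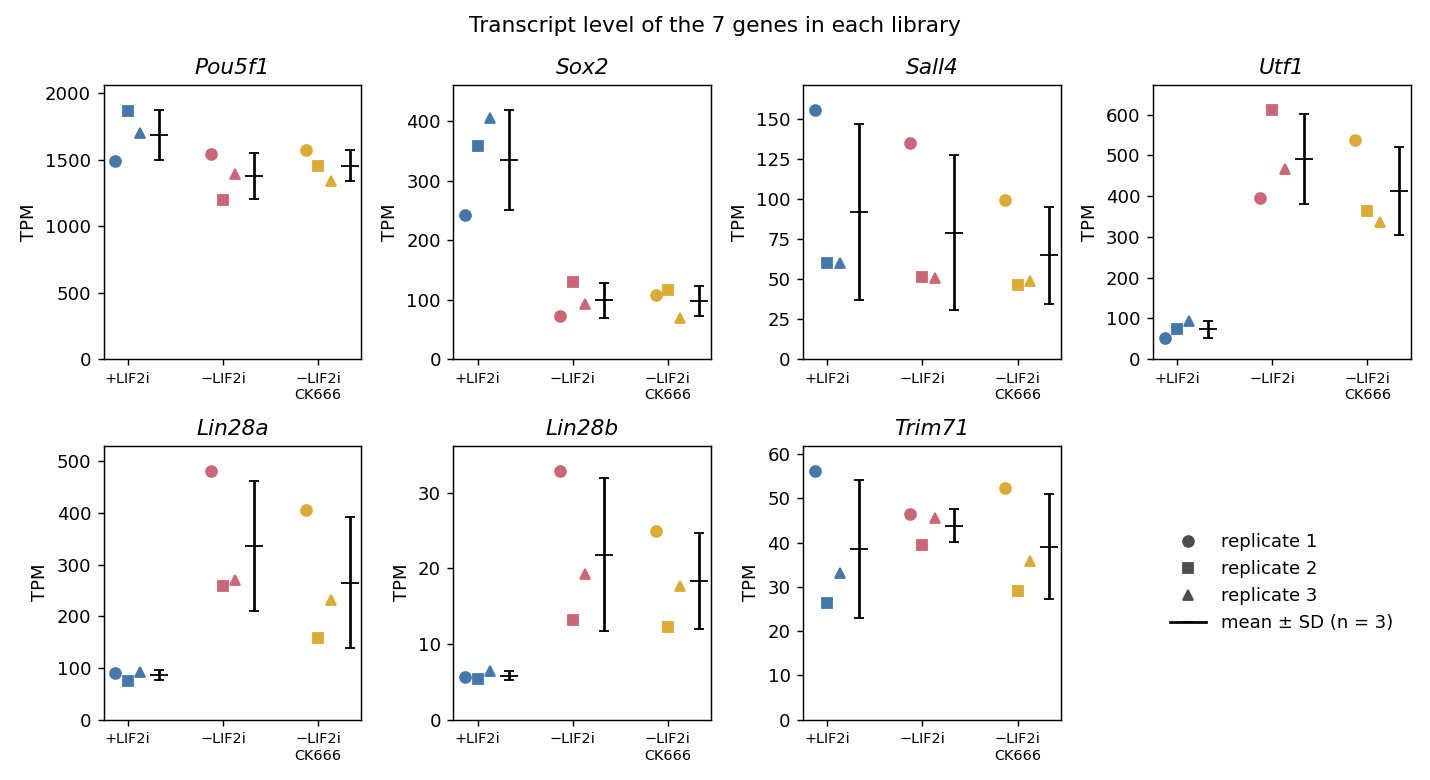
Level of each gene in TPM (vertical axis, starting at 0) in the 3 libraries of each group, with symbols for the replicate number and the mean ± SD beside them. Utf1, Lin28a and Lin28b are higher in all 6 libraries without LIF2i than in the 3 with it, Sox2 is lower in all 6, and Sall4 is highest in replicate 1 of every group.

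The first comparison asks how 72 h without LIF2i changed these genes in control cells. Utf1, Lin28a and Lin28b rose, Sox2 and Sall4 fell, and Pou5f1 and Trim71 did not pass the test. The call was an adjusted p under 0.05 in edgeR's quasi-likelihood test with the replicate number as a block, over 14648 genes. That is 5 of 7 genes, where 40.7% of all tested genes were called in this comparison (21.1% raised and 19.7% lowered). For 4 of the 7, Utf1, Lin28a, Lin28b and Sox2, the CPM of the groups did not overlap, which was true of 40.7% of all tested genes. The median log2 fold change was 0.23 over the 7 genes and 0.01 over all tested genes.

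Lin28a (chromosome 4, 134003330 to 134018841, minus strand), the stem cell LIN28 protein, was measured at 91.3, 75.4 and 92.7 TPM in replicates 1, 2 and 3 with LIF2i and at 481, 258 and 269.9 TPM after withdrawal. The lowest withdrawn library was above the highest self-renewing one. Its fold change was 3.54-fold, a log2 fold change of 1.82 (SE 0.23, 95% interval 1.30 to 2.35, edgeR adjusted p 0.00033), with a rise in 3 of 3 pairs. The pairs themselves differed by 2.47, 1.64 and 1.46 on the log2 scale, the first being the largest.

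Lin28b (chromosome 10, 45376620 to 45486395, minus strand), its paralog, was at 5.71, 5.34 and 6.44 TPM with LIF2i, from 348, 363 and 376 estimated counts. After withdrawal it was at 32.9, 13.2 and 19.3 TPM. The groups did not overlap, and the withdrawn libraries spread more widely than the self-renewing ones. The fold change was 3.47-fold (log2 1.80, SE 0.22, 95% interval 1.29 to 2.30, edgeR adjusted p 0.00027), up in 3 of 3 pairs. The TPM of Lin28a was 12.9 to 19.6 times that of Lin28b in all 9 libraries, and did not separate the groups. The pairwise differences of Lin28b were 2.53, 1.30 and 1.60.

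Utf1 (chromosome 7, 139943789 to 139945112, plus strand) had the largest fitted change of the 7. It was at 51.8, 73.6 and 94.5 TPM with LIF2i and 394.5, 612 and 467 TPM after withdrawal. The lowest withdrawn library was above the highest self-renewing one. The fold change was 6.42-fold (log2 2.68, SE 0.31, 95% interval 1.97 to 3.40, edgeR adjusted p 0.00029), up in 3 of 3 pairs.

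Sox2 (chromosome 3, 34650405 to 34652461, plus strand) went the other way. It was at 242, 359 and 405 TPM with LIF2i and at 72.7, 130.4 and 93.3 TPM after withdrawal, with no overlap. It was 3.57-fold lower (log2 -1.84, SE 0.26, 95% interval -2.42 to -1.26, edgeR adjusted p 0.00059), down in 3 of 3 pairs. Its usual partner Pou5f1 (chromosome 17, 35506018 to 35510772, plus strand) was at 1490.2, 1866 and 1704 TPM with LIF2i and 1543, 1199 and 1394.5 TPM after withdrawal, and the groups overlapped. The log2 difference was -0.24 (SE 0.23, 95% interval -0.75 to 0.26, edgeR adjusted p 0.42), negative in 2 of 3 pairs. The ratio of Pou5f1 to Sox2 in TPM was 4.21 to 6.15 with LIF2i, 9.20 to 21.2 after withdrawal and 12.5 to 19.5 with CK666. The difference in Pou5f1 depended on replicates 1 and 2. It was -0.53 without replicate 1 (edgeR adjusted p 0.0078) and -0.54 without the replicate 1 library with LIF2i alone (0.0056). It was 0.04 without replicate 2 (0.93) and 0.009 without the replicate 2 library with LIF2i alone (0.98).

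Sall4 (chromosome 2, 168748332 to 168767943, minus strand) was at 156, 60.4 and 60.2 TPM with LIF2i and 135, 51.3 and 51.0 TPM after withdrawal. Replicate 1 was the high library in both groups, the groups overlapped, and each pair was lower without LIF2i. The log2 fold change was -0.31 (SE 0.10, 95% interval -0.54 to -0.08, edgeR adjusted p 0.039), down in 3 of 3 pairs. The call rests on the pairing, since without the block the adjusted p was 0.68 at a difference of -0.28, and it passed in 5 of 20 alternatives. Leaving out 1 library ended the call for 7 of the 9 libraries, all but replicate 1 with LIF2i and replicate 1 with CK666, at adjusted p values of 0.060 to 0.19.

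Trim71 (chromosome 9, 114507133 to 114564369, minus strand), which carries the most let-7 seed matches together with Lin28b, was at 56.3, 26.4 and 33.1 TPM with LIF2i and 46.4, 39.5 and 45.6 TPM after withdrawal. The groups overlapped, and replicate 1 stood well above the others with LIF2i and close to them after withdrawal. The log2 difference was 0.23 (SE 0.15, 95% interval -0.11 to 0.57, edgeR adjusted p 0.26). The pairs gave -0.20, 0.45 and 0.41, so pair 1 differed in sign from the others. Without replicate 1 the difference was 0.45 (edgeR adjusted p 0.0049), and without the withdrawn replicate 1 library alone it was 0.45 (0.022). Without replicate 1 all 7 genes were called, against 44.8% of all tested genes. The log2 fold changes were then 1.58 for Lin28a, 1.48 for Lin28b, 2.602 for Utf1, -1.88 for Sox2 and -0.33 for Sall4.

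**Figure D2:**
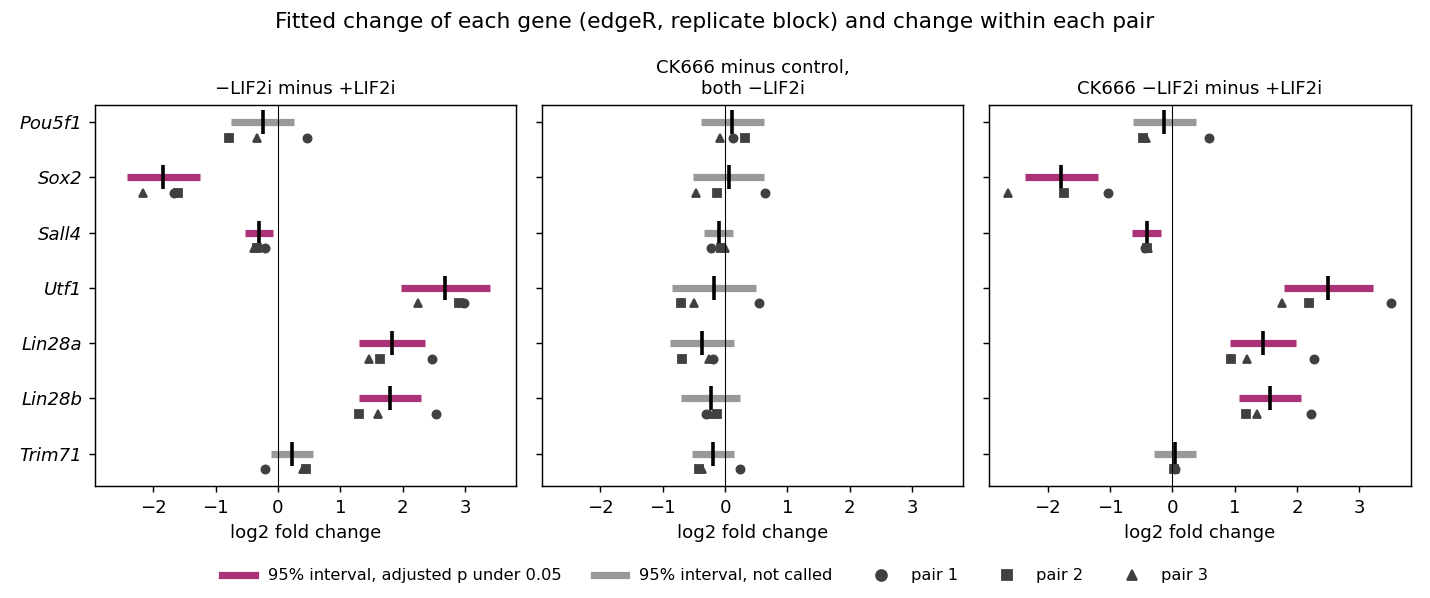
Fitted log2 fold change (black tick) with its 95% interval (bar) for each gene in the 3 comparisons, and the log2 difference within each replicate pair (symbols). In the comparison of CK666 with the withdrawn controls all 7 intervals include 0, while the intervals of Sox2, Utf1, Lin28a and Lin28b lie far from 0 in both comparisons with self-renewing cells.

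The second comparison asks whether CK666 altered these genes during withdrawal. None of the 7 was called by edgeR (0 of 7, where 2.05% of all tested genes were called, 1.15% raised and 0.894% lowered), and 0 had an unadjusted p under 0.05, against 19.7% of all tested genes. DESeq2 called 0 of them, against 7.76%, and limma 0, against 0.287% and 0.157% at the pseudocounts of 1 and 0.1. CPM did not overlap in 0 of 7, against 16.5%. With 7 genes, a count of 0 lies near each of these shares and says little about the members. The CK666 libraries were at 405, 159 and 231 TPM for Lin28a, 25.0, 12.3 and 17.6 TPM for Lin28b, and 537, 364 and 338 TPM for Utf1. Within these genes replicate 1 was the highest CK666 library. The log2 difference of Lin28a was -0.37 (95% interval -0.88 to 0.14, edgeR adjusted p 0.40), negative in 3 of 3 pairs. For Lin28b it was -0.23 (-0.71 to 0.25, adjusted p 0.60), also negative in 3 of 3 pairs. For Utf1 it was -0.18 (-0.85 to 0.50, adjusted p 0.80), negative in 2 of 3 pairs. These intervals do not exclude a lower level with CK666 of the size that their lower bounds give.

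Pou5f1 was at 1572, 1452 and 1341 TPM with CK666, a log2 difference of 0.11 (95% interval -0.39 to 0.62, edgeR adjusted p 0.83). Sox2 was at 107, 116 and 68.9 TPM, a difference of 0.06 (-0.51 to 0.63, adjusted p 0.93) whose sign differed between pairs. Sall4 was at 99.9, 46.2 and 48.6 TPM, a difference of -0.10 (-0.33 to 0.13, adjusted p 0.64). Trim71 was at 52.3, 29.2 and 35.8 TPM, a difference of -0.19 (-0.53 to 0.14, adjusted p 0.53). Libraries of the 2 groups overlapped for each of these genes, and the narrowest interval was that of Sall4.

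Replicate 1 bore on this comparison. Without it 3 of 7 genes were called lower with CK666, where 12.3% of all tested genes were called (6.19% lowered): Utf1 at -0.63 (edgeR adjusted p 0.023), Lin28a at -0.50 (0.025) and Trim71 at -0.41 (0.027). The others were not called, at -0.30 for Sox2 (0.35), whose sign turned, 0.09 for Pou5f1 (0.68), -0.06 for Sall4 (0.76) and -0.21 for Lin28b (0.35). In pair 1 the difference was 0.54 for Utf1 and 0.24 for Trim71, opposite in sign to pairs 2 and 3. Lin28a was also called at -0.40 (0.040) without the replicate 1 library with LIF2i, a library that is in neither group of this comparison but enters the shared fit. With the replicate block removed, 0 members and 0.00% of all tested genes were called in this comparison.

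The third comparison sets the CK666 group against the self-renewing cells. It shares its libraries with the other comparisons and is given beside them as its own values. Of the 7 genes, 5 were called, where 36.9% of all tested genes were (19.8% raised and 17.1% lowered). Utf1 was 5.68-fold higher (log2 2.51, SE 0.31, edgeR adjusted p 0.0005), Lin28a 2.74-fold higher (1.45, SE 0.23, 0.0013) and Lin28b 2.96-fold higher (1.56, SE 0.22, 0.00065). Sox2 was 3.43-fold lower (-1.78, SE 0.26, 0.00084). The libraries of these 4 genes did not overlap between the groups, which held for 37.3% of all tested genes. Sall4 was lower in 3 of 3 pairs at -0.41 (SE 0.10, edgeR adjusted p 0.013), overlapped between groups, and was not called without the block (adjusted p 0.53) or without replicate 2 (0.101) or replicate 3 (0.13), nor without the CK666 replicate 2 library (0.057) or the self-renewing replicate 3 library (0.061). Pou5f1 differed by -0.13 (95% interval -0.64 to 0.38, adjusted p 0.68), and by -0.44 without replicate 1 (0.020) or the replicate 1 library with LIF2i (0.017). Trim71 differed by 0.04 (-0.30 to 0.37, adjusted p 0.87). Without the block 4 of 7 genes were called, where 20.2% of all tested genes were, and without replicate 1 6 of 7, where 41.6% were. Without replicate 1 Utf1 was at 1.98, Lin28a at 1.08, Lin28b at 1.27, Sox2 at -2.18, Sall4 at -0.39 and Trim71 at 0.04, the gene not called.

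The gene values sum over annotated transcripts, and reads are divided between transcripts by estimation. Sox2, Utf1 and Trim71 have 1 transcript each. Lin28a-201 held 93.0% to 97.3% of the TPM of Lin28a in each library, and Lin28a-204, a 478-base protein-coding model, most of the rest outside replicate 1 with LIF2i. Lin28b-201, the 5402-base coding transcript, held 64.3% to 94.7%, with the processed transcripts Lin28b-202 and Lin28b-203 making up the rest. The lowest share, 64.3%, was in replicate 2 with LIF2i and rests on 287.7 of its estimated counts. Sall4-201 held 69.3% to 79.2% of the TPM of Sall4 and the short Sall4-206 15.9% to 23.2%, although Sall4-206 took only 2.14% to 3.15% of the counts. These shares varied between libraries of the same group and are given with no test.

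Pou5f1 had an unusual division in 1 library. Pou5f1-202, a 435-base protein-coding model, was assigned 397 TPM (842.1 estimated counts) in replicate 1 with LIF2i and 0 in the other 8 libraries. In that library it made up 26.7% of the TPM of the gene but 5.40% of its counts. The main transcript Pou5f1-201 was at 1093, 1862 and 1703 TPM with LIF2i, 1537, 1197 and 1393 TPM after withdrawal and 1571, 1450.3 and 1340.2 TPM with CK666. On the count scale the gene was at 767, 1748 and 1492 CPM with LIF2i, 1064, 1013 and 1179 CPM after withdrawal, and 1155, 1262 and 1112 CPM with CK666. The replicate 1 library with LIF2i was the lowest of the 9 in CPM but not in summed TPM.

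In the fit of single transcripts, 6.31% of 40170 transcripts were called on withdrawal. Lin28a-201 (log2 1.90, edgeR adjusted p 0.016), Lin28b-201 (1.97, 0.0084) and Utf1-201 (2.75, 0.011) were higher and Sox2-201 (-1.77, 0.023) was lower. Sall4-201 differed by -0.23 (adjusted p 0.29) and was not called. Between CK666 and the withdrawn controls 0 transcripts were called. Against self-renewing cells, where 4.90% of transcripts were called, the same 4 transcripts of these genes passed, with Sox2-201 at -1.70 (adjusted p 0.031, and 0.051 without the block). In a fit without replicate 1, added after seeing the data, these 4 transcripts were called in both comparisons, where 4.05% and 2.76% of 41345 transcripts were, and for CK666 the share was 0.00%.

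**Figure D3:**
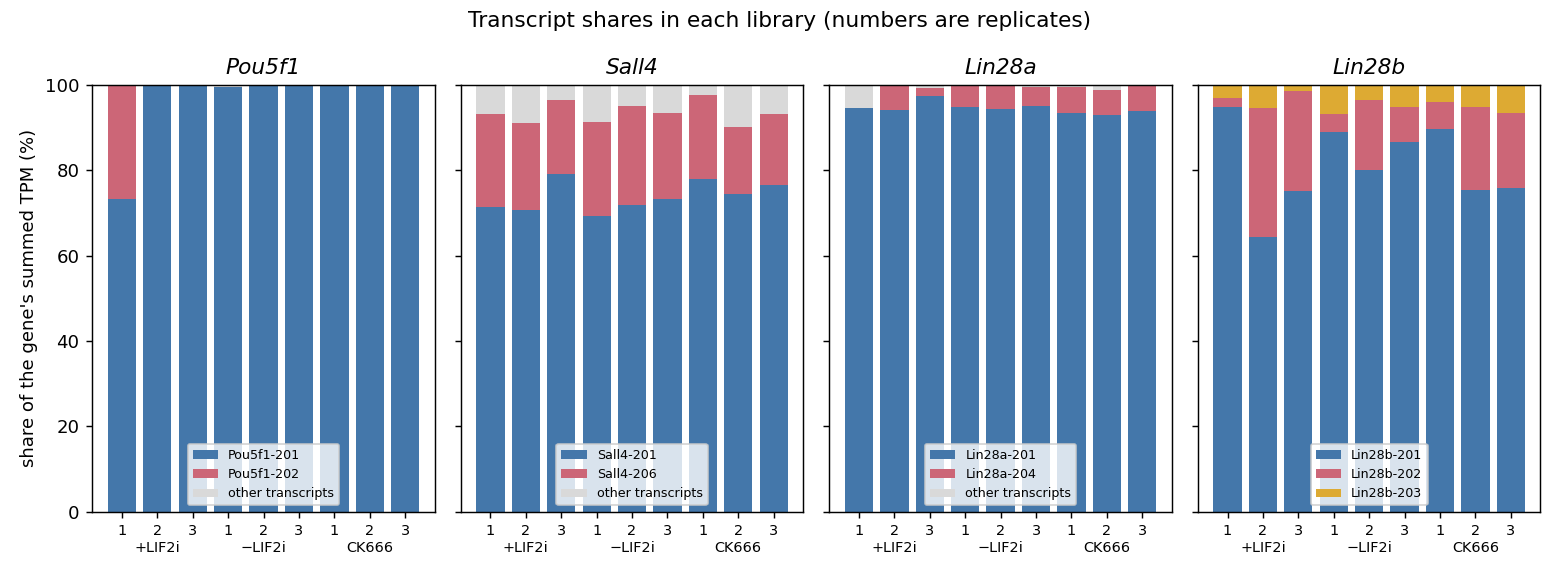
Share of each gene's summed TPM held by its transcripts (stacked bars, percent) in the 9 libraries, for the 4 genes with more than 1 transcript. Pou5f1-202 appears in replicate 1 with LIF2i only, Lin28a-201 holds 93.0% to 97.3% in every library, and the share of Lin28b-201 varies most, from 64.3% to 94.7%.

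For 4 members an annotated gene on the opposite strand covers some of their exonic bases, and the sources used here do not say whether reads were assigned by strand. The share was 14.1% for Pou5f1 (with Gm19553), 9.50% for Sall4 (Gm14261), 5.86% for Lin28a (Gm13061) and 1.45% for Trim71 (C130032M10Rik). Sox2, Utf1 and Lin28b shared 0 bases. A sequence search at 95% identity over 100 bases found no other near-identical annotated transcript for these genes.

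The balance between short and long transcripts differed in replicate 1. With LIF2i, the median ratio of replicate 1 to the mean of replicates 2 and 3 was 0.62 over 2032 genes with a main transcript under 1500 bases and 1.27 over 1613 genes of 5000 bases and over. After withdrawal it went from 0.74 to 1.15, and with CK666 from 0.79 to 1.18. Over the 3312 genes of 1500 to under 3000 bases the medians were 0.92, 0.99 and 0.97 with LIF2i, after withdrawal and with CK666. In that order of groups, the ratios were 0.45, 0.60 and 1.32 for Utf1 (1227 bases) and 0.47, 0.97 and 0.97 for Pou5f1 (1362 bases), the members under 1500 bases. Both were low in replicate 1 with LIF2i, but with CK666 Utf1 was high and Pou5f1 close to even. Sox2 (2057 bases) was at 0.47, 0.53 and 1.00. Sall4 (5073 bases) was high, at 1.90, 2.12 and 1.85 in the 3 groups, and Trim71 (9332 bases) was at 1.40, 0.91 and 1.41. Lin28a and Lin28b were at 0.79 and 0.82 with LIF2i but at 1.51 and 1.71 after withdrawal and 1.81 and 1.59 with CK666. The part of this imbalance in the results of the members was not tested, and a fit that removes a trend with length from each library gave Sall4 an adjusted p of 0.056 on withdrawal and left the other calls of the 7 genes as they were.

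**Figure D4:**
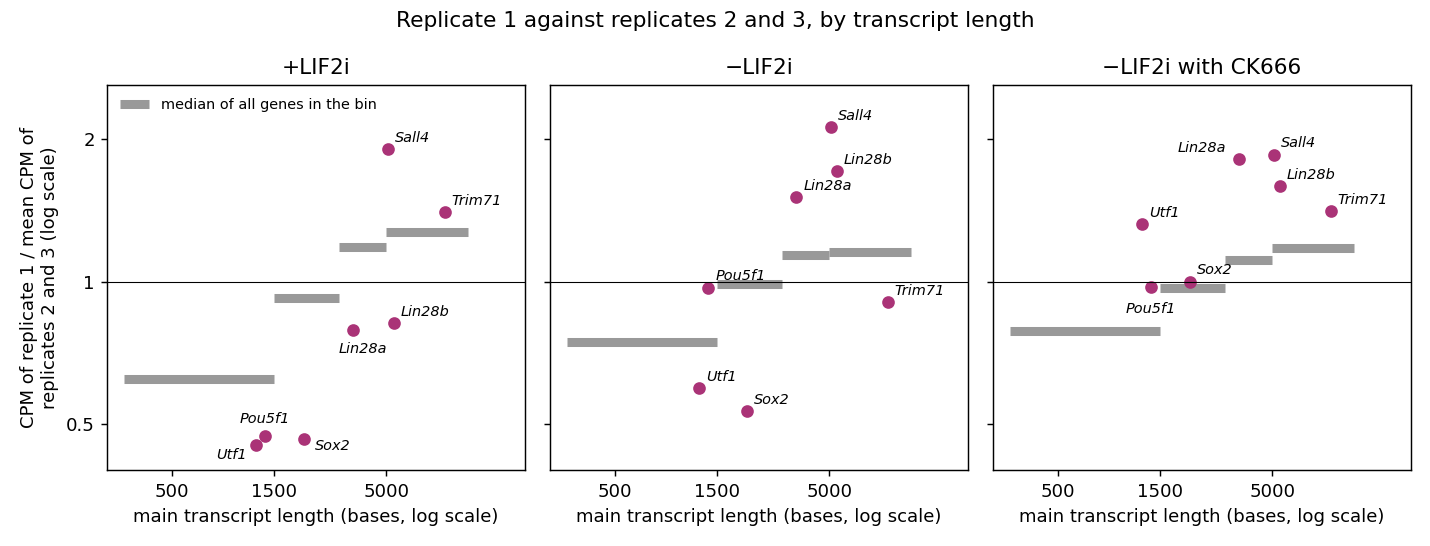
Ratio of the CPM of replicate 1 to the mean CPM of replicates 2 and 3 (vertical axis, log scale) against main transcript length in bases (log scale) for the 7 genes (points), with the median over all genes of each length bin (grey bars; the outermost bins are open-ended). In all 3 groups the medians rise with length, and Sall4 lies above its bin in each.

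Genes around these members were read from lists. In the list of let-7 processing factors, 2 of 16 genes rose and 3 fell on withdrawal, where 21.1% and 19.7% of all tested genes did. Tarbp2, a Dicer partner, changed by 0.55 (edgeR adjusted p 0.0048) and Xpo5, the exporter of precursor microRNAs, by 0.48 (0.037). Trim25, a cofactor of LIN28A-mediated let-7 uridylation, changed by -1.17 (0.00019), Ago2, the slicing Argonaute, by -0.60 (0.0042) and Dis3l2, the nuclease that degrades uridylated pre-let-7, by -0.56 (0.012). The list's median was 0.08, against 0.01 over all genes. With CK666, 1 of 16 was called: Dgcr8, the partner of Drosha, at -1.07 (0.031), where 0.894% of all tested genes were lowered. Against self-renewing cells, where 19.8% and 17.1% of all tested genes rose and fell, 2 rose (Tut4, a uridylating enzyme, and Dicer1) and 3 fell (Trim25, Dgcr8 and Ago2).

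Of genes widely described as let-7 targets, 10 of 20 rose and 2 fell on withdrawal, where 21.1% and 19.7% of all tested genes did, with a median log2 fold change of 0.42 against 0.01 over all genes. The largest were Thbs1 (7.13, SE 1.12, edgeR adjusted p 0.0033), an extracellular matrix protein, Ccnd2 (4.37, SE 0.22, 3.8e-06), a G1 cyclin, and Myc (4.15, SE 0.36, 3.7e-05). Map4k4, a kinase, changed by -0.70 (0.00091) and Igf2bp2, an RNA-binding protein, by -0.58 (0.0059). By the same search as above, 11 of 19 genes of this list with a 3′ untranslated region held the seed match, where 1.73% to 39.1% of genes of like length did, depending on the gene. Thbs1, Ccnd2 and Myc held 0. With CK666 1 rose (Map4k4, 0.53, adjusted p 0.043) and 1 fell (Mycn, -1.58, 0.031), where 1.15% and 0.894% of all tested genes did. Against self-renewing cells 10 rose and 3 fell, where 19.8% and 17.1% did.

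Among regulators, partners and close targets of OCT4 and SOX2, 6 of 22 tested genes rose and 7 fell on withdrawal, where 21.1% and 19.7% of all tested genes did, with a median of 0.18. The raised count lies near the share over all genes. The nuclear receptors and naive factors Esrrb (-4.95, edgeR adjusted p 8.7e-05) and Nr5a2 (-4.80, 3.8e-06), and Fbxo15 (-3.72, 0.00079), were the lowest. Nr6a1, a nuclear receptor that represses Pou5f1 in differentiation, rose by 1.52 (4.1e-05), Foxd3 by 1.34 (0.019) and Zscan10 by 0.82 (0.00032). With CK666 2 fell, Zscan10 at -0.96 (0.011) and the RNA-binding protein gene L1td1 at -0.89 (0.030), and 0 rose, where 0.894% and 1.15% of all tested genes did. Against self-renewing cells 3 rose and 7 fell, where 19.8% and 17.1% did.

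Of the SALL paralogs and subunits of NuRD, 5 of 16 rose and 3 fell on withdrawal, where 21.1% and 19.7% of all tested genes did, with a median of -0.13. The lowered count lies near the share over all genes. Of the paralogs, Sall2 rose by 4.03 (edgeR adjusted p 2e-05) and Sall3 changed by -3.61 (0.0006), while Sall1, named after its value was seen, was at -0.34 (0.063) and not called. The remodelling ATPases of NuRD rose, Chd3 by 0.81 (0.026) and Chd4 by 0.72 (0.0053). Gatad2b (-0.39, 0.015) and Hdac2 (-0.31, 0.047) fell. With CK666 0 were called by edgeR, where 2.05% of all tested genes were, and against self-renewing cells 4 rose and 4 fell, where 19.8% and 17.1% did. Of the relatives of SOX2, OCT4 and TRIM71, 6 of 17 tested genes rose and 4 fell on withdrawal, against the same 21.1% and 19.7%, with a median of 0.76. Sox3 (5.65, 1.9e-05) and the POU factor gene Pou3f1 (4.12, 7.5e-05) rose while Sox2 fell, as did Sox11 (4.03, 0.00025). Sox21 (-2.66, 0.0016), Sox15 (-1.95, 0.0094) and Sox1 (-1.36, 0.019) fell with Sox2. With CK666 0 were called, against 2.05%, and against self-renewing cells 5 rose and 4 fell, against 19.8% and 17.1%.

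Without the replicate block, the counts raised and lowered on withdrawal were 1 and 3 for let-7 processing, 8 and 2 for let-7 targets, 2 and 7 for the OCT4 and SOX2 list, 1 and 1 for SALL and NuRD, and 5 and 2 for the relatives, where 24.0% of all tested genes were called. Without replicate 1 they were 3 and 3, 11 and 3, 6 and 8, 5 and 4, and 6 and 4, where 44.8% of all tested genes were called. For CK666 the counts over the same lists were 0 without the block, where 0.00% of all tested genes were called. Without replicate 1 they were 1 and 4, 3 and 5, 1 and 5, 0 and 1, and 2 and 2, in a fit that called 12.3% of all tested genes, 1811 against 300 with all libraries. Against self-renewing cells the counts in the same order were 1 and 1, 9 and 2, 1 and 6, 2 and 1, and 5 and 1 without the block, where 20.2% of all tested genes were called. Without replicate 1 they were 2 and 3, 9 and 3, 3 and 8, 3 and 7, and 7 and 3, where 41.6% were.

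**Figure D5:**
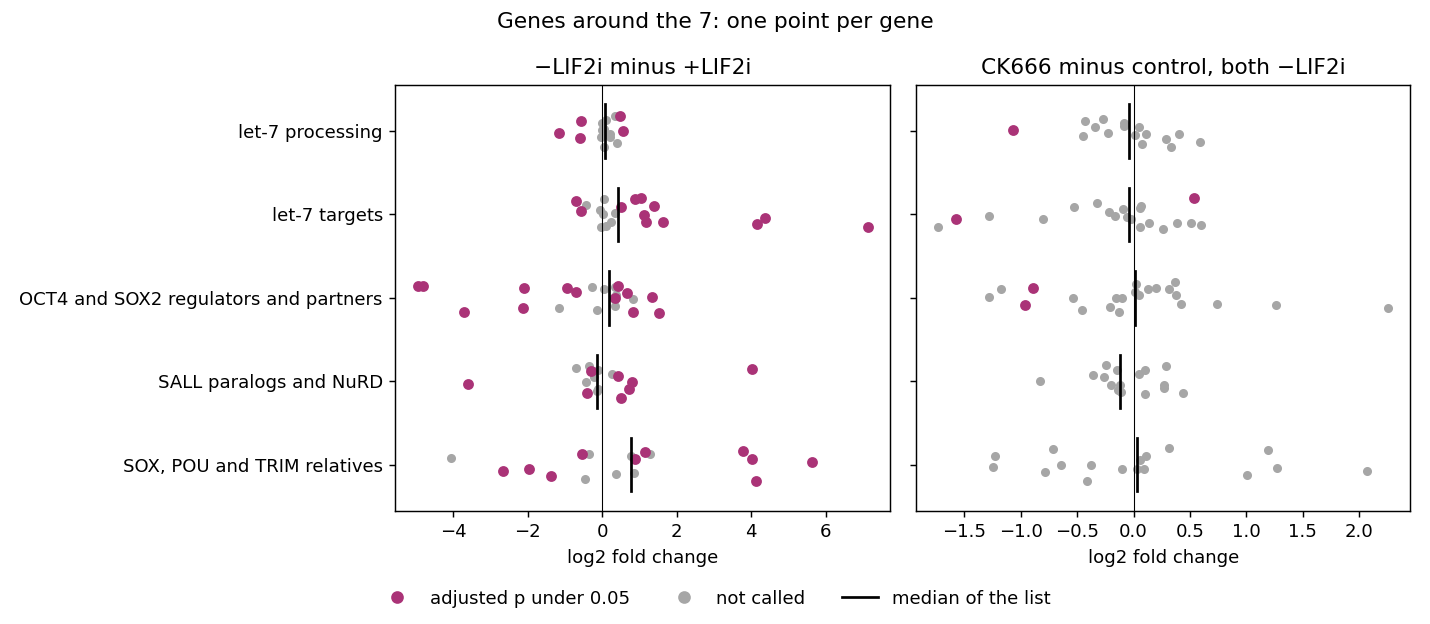
Log2 fold change of each tested gene of the 5 lists (points; vertical jitter only separates them), on withdrawal and with CK666 against withdrawn controls, with the list's median as a black line. The horizontal scales differ: withdrawal spans -4.95 to 7.13, and the CK666 panel has 5 called genes in all.

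The genes whose pattern over the 9 libraries was most like each member were found by the root mean square difference of centred log2 CPM, among 9498 protein-coding genes. The closest were Limd2 (0.19) and Cdc14a (0.19) for Lin28a, and Cdc14a (0.15) and Cachd1 (0.16) for Lin28b. Lin28a and Lin28b differed from each other by 0.1605, which is less than Lin28a differed from either of its closest non-members, but more than Lin28b differed from Cdc14a (0.1508) and Cachd1 (0.157). For Utf1 the closest were Ptpn14 (0.29) and Ripk4 (0.31), for Sox2 Ech1 (0.27) and St3gal4 (0.28), and for Pou5f1 Secisbp2 and Ubxn1 (0.13 each). Sall4 was closest to Abce1 (0.07) and Usp5 (0.08), which were likewise highest in replicate 1 of each group, and Trim71 to Scaf1 (0.10) and Cpsf6 (0.105). These values describe libraries that share group and replicate, and no test was made.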

How the data were processed

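Poly-A RNA of 9 libraries was analysed, 3 in each of 3 groups. The deposited tables hold, per transcript, estimated counts (expected counts), TPM and effective length as the authors' kallisto runs gave them. Per the submitters' processing notes the tools were FastQC, cutadapt 1.8.1, kallisto and sleuth, with the builds GRCh38 and mm10 listed without a role. Aligner settings, strand and transcript release are not given in the sources used here. Of 119414 transcripts, 116640 (97.7%) were mapped to genes by Ensembl identifier in GENCODE M21, and the others held 0.895% to 1.08% of the counts.

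Estimated counts were summed per gene, rounded and tested with edgeR 4.0.16 (R 4.3.3): TMM scaling, filterByExpr (14648 genes), robust quasi-likelihood fit of all 9 libraries with the replicate number as a block (4 residual degrees of freedom), and Benjamini-Hochberg adjustment, called under 0.05. Adjusted p-values of genes are over all tested genes, and those of single transcripts are over all tested transcripts. CPM are TMM-scaled. TPM were summed per gene as deposited by the authors. The series text calls the replicates paired, and same-numbered libraries deviated together (correlations of 0.30 to 0.65, median 0.41, against -0.53 to 0.29, median -0.37, for different numbers). All negative correlations were between replicate 1 and another number. Replicates 2 and 3 also correlated with each other, at 0.21 to 0.29, against 0.30 to 0.51 for same-numbered libraries of these replicates. The contrast was thus much smaller away from replicate 1. The biological coefficient of variation was 0.21 with the block and 0.36 without it.

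The members and lists were chosen with earlier results of these data known. Named genes are the members; per list and comparison, at most 3 called genes in each direction by size of change; per member, the 2 most alike genes; and transcripts holding at least 5% of a gene's TPM. On data simulated for the withdrawal comparison (14502 genes), the blocked fit recovered 55 of 100 genes changed by 1 and 74 of 100 changed by 2 on the log2 scale, with 9 false calls; without the block it recovered 1 and 36, with 1 false call. Alternatives used DESeq2 1.42.0, limma 3.58.1 on log2(TPM + 1) and log2(TPM + 0.1), other scalings and filters, and left-out libraries. The fit with a length trend was chosen after seeing the data. Sequence similarity used blastn 2.17.0.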

Additional observations from a re-analysis of the deposited data

How the results depend on the processing

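Over 20 alternatives, Sox2, Utf1, Lin28a and Lin28b kept their direction and call in both comparisons with self-renewing cells. Their log2 values on withdrawal ranged from -2.03 to -1.51, 2.42 to 3.02, 1.53 to 2.03 and 1.48 to 2.05. The remaining 3 genes and the CK666 comparison depended on the setting, and the cause was not tested. With the fit without the replicate block, the genes called were 3509 instead of 5967 on withdrawal, 0 instead of 300 for CK666 and 2966 instead of 5408 against self-renewing cells. Removing the block ended the gene-level call of Sall4 and changed no other gene-level call of the 7. For CK666, DESeq2 called 1136 genes, no expression filter 565, an effective length offset 149, and limma 42 with a pseudocount of 1 and 23 with 0.1. Leaving out libraries gave 3099 to 6588 genes on withdrawal, 0 to 1811 for CK666 and 2413 to 6129 against self-renewing cells, with 0 to 3 members called for CK666, 4 to 7 on withdrawal and 4 to 6 against self-renewing cells. The 1811 genes were without replicate 1, and 1657 without its library with LIF2i alone. Differences of members that were not called changed sign in 21 instances. Over the left-out libraries Pou5f1 ranged from -0.538 to 0.039 on withdrawal, -0.087 to 0.271 for CK666 and -0.441 to 0.118 against self-renewing cells, Sox2 from -0.337 to 0.356 and Utf1 from -0.69 to 0.074 for CK666, and Trim71 from -0.072 to 0.149 against self-renewing cells. Sox2 for CK666 was -0.017 with no replicate block and -0.012 with limma at either pseudocount, and Trim71 against self-renewing cells was -0.03 with the length trend. Fits that leave a pair with a single library pool the spread over the groups. The least abundant member, Lin28b, rests on 348 to 376 estimated counts with LIF2i.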
